A study of Mus musculus with 6 samples.

Results

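Immediate early response genes are the genes that a cell transcribes within minutes of a stimulus, without first making new protein. The set described here holds 10 of the 53715 genes listed for mouse liver: Fos, Fosb, Jun, Junb, Jund, Egr1, Atf3, Ier2, Klf6 and Myc. Its members were fixed by symbol, and each of the 10 was found as 1 row through its Ensembl gene ID with the version removed. No cut on the members' values was used, though earlier results of these data were known when the set was chosen.

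Liver RNA came from F1 males of ICR, an outbred mouse stock, at 8 weeks of age. There were 3 libraries of control F1 males, whose stress label reads control, and 3 of FR F1 males, whose label reads paternal famine. The labels do not spell out FR, and the series title names a paternal overdiet instead, so the groups keep their label names here. Both groups share strain, sex, age and tissue, and no allele or direct treatment of the F1 animals is given. The livers were frozen on dry ice. The hour of collection, the feeding state and the time from death to freezing are not given in the labels, and nothing says whether libraries came from separate animals or litters. The p-values below therefore measure only the spread between these libraries.

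Growth factors, cytokines, feeding signals and tissue stress reach these genes through protein kinases that act on factors already bound at their promoters, such as SRF with its ELK partners and CREB. FOS and JUN proteins pair as the transcription factor AP-1, EGR1 is a zinc finger factor, and MYC drives growth genes with its partner MAX. Their RNAs and proteins are short-lived. In liver they are best known for their surge after partial hepatectomy and for their response to handling, ischaemia and cell dissociation, which makes them a check on how each organ was collected.

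In these livers the Fos, Fosb and Atf3 transcripts were close to the limit of detection in all 6 libraries, and Ier2, Junb and Jund were the members with the highest levels. No member passed the test between FR F1 and control F1 livers (0 of the 7 with enough counts; edgeR's quasi-likelihood test, n = 3 per group, adjusted p under 0.05 by Benjamini and Hochberg). Among all 13022 genes tested, 0.837% passed. DESeq2 and limma-voom also called 0 of the 7. In DESeq2 Egr1 lay just over the threshold, with a log2 fold change of 1.87 ± 0.61 (SE) and an adjusted p of 0.0549. In limma-voom its adjusted p was 0.384. At an unadjusted p under 0.05 edgeR gave 2 members, Egr1 and Jund, against 17.9% of all tested genes. The groups overlapped in each of the 7 tested members, while they lay wholly apart in 25.7% of tested genes. They also overlapped in Fos, Fosb and Atf3, whose counts were too few to test. A p that misses the threshold does not show that levels were equal, and 3 members, Egr1, Myc and Jund, differed several-fold between single libraries. Without a filter on low counts, which raised the number of genes tested to 30930, edgeR called those same 3 members among 1251 genes. In that fit Junb, Jund and Ier2 all had an SE of 0.21, against 0.26, 0.38 and 0.16 with the filter. Its p-values therefore carry less of each gene's own replicate spread than those of the filtered fit. In bulk tissue, fewer cells of a type and less RNA per cell cannot be told apart.

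**Figure D1:**
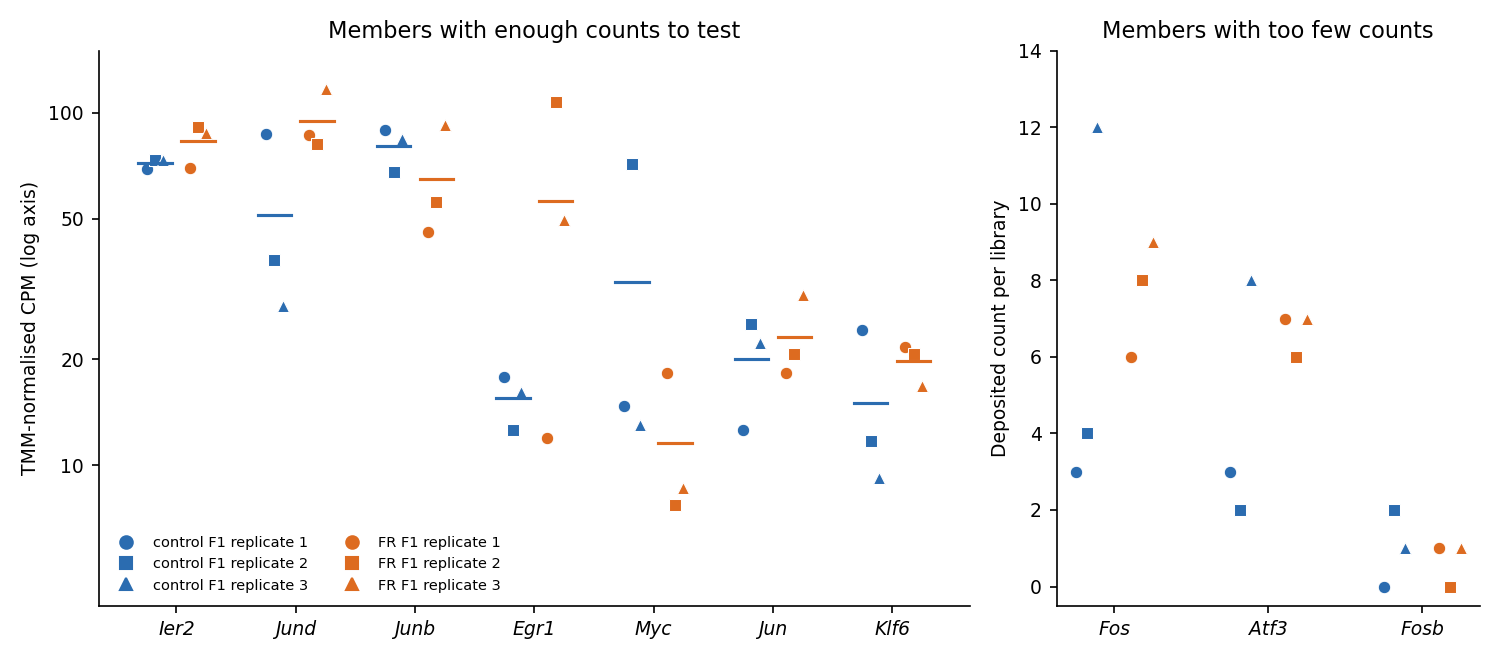
Left, TMM-normalised counts (CPM, counts scaled to library size, log axis) of the 7 members with enough counts to test, with a point for each library and a bar for the mean of each group; right, deposited counts per library of the other 3 members on a linear axis. Egr1 stands at 107 CPM in FR replicate 2 and Myc at 71.7 CPM in control replicate 2, far above their other libraries, while Fos does not exceed 12 counts in any library.

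The stretches of 150 bases before the transcript start are shown for Fos, Jun and Junb, because these 3 AP-1 genes ranged from barely detected Fos to abundant Junb in the same libraries. They are RefSeq promoters of build GRCm38.p6, the assembly also called mm10, written 5′ to 3′ on the strand of the gene. Capitals mark TGACG, the core of the cAMP response element, on either strand, and TATAA, the TATA box, on the strand of the gene. Fos lies at chr12:85473740-85473889 on the plus strand, Jun at chr4:95052223-95052372 on the minus strand and Junb at chr8:84978749-84978898 on the minus strand.
Fos: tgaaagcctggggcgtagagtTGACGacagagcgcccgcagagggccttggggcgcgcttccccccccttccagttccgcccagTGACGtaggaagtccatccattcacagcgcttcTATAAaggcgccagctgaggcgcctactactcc
Jun: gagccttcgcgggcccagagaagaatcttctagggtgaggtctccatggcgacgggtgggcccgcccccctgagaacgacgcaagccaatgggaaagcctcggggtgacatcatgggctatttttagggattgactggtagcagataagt
Junb: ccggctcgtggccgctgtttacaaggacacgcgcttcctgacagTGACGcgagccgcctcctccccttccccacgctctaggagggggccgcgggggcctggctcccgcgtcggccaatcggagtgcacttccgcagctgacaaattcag

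The Fos stretch carries TGACG at 2 places, starting 129 and 66 bases before the transcript start, and TATAA starting 33 bases before it. The Junb stretch carries TGACG once, starting 106 bases before the start, and the Jun stretch has none of the motifs searched. RefSeq promoters were found for 7 of the members, namely Fos, Fosb, Jun, Junb, Jund, Atf3 and Klf6. For Jund and Atf3 the RefSeq start lies 1210 and 34706 bases from the outermost start in GENCODE. In the 250 bases before the start, 4 of these 7 hold TGACG, against 17.8% of 32851 promoters. The full element TGACGTCA was in 0 of the 7 (1.55% of all promoters), the AP-1 site TGANTCA in 0 (6.75%), the SRF-binding CArG box in 0 (1.47%), the E-box CACGTG in 1, that of Klf6 (6.02%), and TATAA in 1, that of Fos (16.0%). TGACG is part of TGACGTCA, and all but TATAA were searched on both strands. Bases further upstream were not searched, nor were the promoters of Egr1, Ier2 and Myc, so a motif absent here may lie outside the windows. These letter matches describe the windows and are neither binding sites nor tied to the values below.

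Between genes, levels are compared as CPM per kilobase of the longest annotated transcript, averaged over the 6 libraries. Ier2 was highest at 50.9, followed by Jund at 43.9 and Junb at 40.2. Myc at 9.56, Egr1 at 8.00, Jun at 6.76 and Klf6 at 4.12 formed a middle range. Fos at 1.31, Atf3 at 1.09 and Fosb at 0.0912 were lowest. Of the 9 neighbouring pairs in that order, 8 had ranges over the libraries that overlap, the exception being Atf3 and Fosb. Within libraries, 2 of the 9 pairs kept their order in all 6, Junb above Myc and Atf3 above Fosb.

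Fos, the AP-1 subunit that marks recent stimulation most widely (ENSMUSG00000021250.13, chromosome 12, 85473890 to 85477273), had 3, 4 and 12 counts in control replicates 1 to 3. It had 6, 8 and 9 counts in FR replicates 1, 2 and 3. The groups overlap, and the highest value belonged to a control library. Summed over the group, Fos had 19 counts in control F1 (exact 95% Poisson interval 11.4 to 29.7) and 23 in FR F1 (14.6 to 34.5). The intervals cover counting error only, and a difference was not detectable at this depth.

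Fosb, a close relative of Fos (ENSMUSG00000003545.3, chromosome 7, 19302696 to 19310051), had 0, 2 and 1 counts among control replicates 1 to 3 and 1, 0 and 1 in FR replicates 1 to 3. With 3 counts against 2 in the groups, a difference was not detectable at this depth. Atf3, a stress-induced factor that binds DNA with JUN partners (ENSMUSG00000026628.13, chromosome 1, 191170296 to 191218039), had 3, 2 and 8 control counts and 7, 6 and 7 in the FR libraries. Control replicate 3 was the highest library in both Fos and Atf3. Fitted without a filter on low counts, Fos had a log2 fold change of 0.16 ± 0.60 (SE), Atf3 0.49 ± 0.66 and Fosb -0.63 ± 1.45, with adjusted p of 0.925, 0.702 and 0.857.

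Jun, the founding AP-1 partner of FOS (ENSMUSG00000052684.4, chromosome 4, 95049034 to 95052222, a single exon), had 12.6, 25.2 and 22.2 CPM in control replicates 1 to 3. In FR replicates 1 to 3 it had 18.3, 20.6 and 30.4 CPM. FR replicates 1 and 2 lie within the control range, FR replicate 3 lies above it, and control replicate 1 is the lowest library. The log2 fold change was 0.20 ± 0.32 (adjusted p = 0.756), and it turned to -0.04 without control replicate 1 and to -0.03 without FR replicate 3. Jun shares 232 of its 3189 exonic base pairs with Junos on the other strand, which had 2.58 to 8.05 CPM.

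Junb, a JUN relative that is also an early target of many signals (ENSMUSG00000052837.6, chromosome 8, 84974484 to 84978718), had 89.3, 68.1 and 84.4 CPM in the control libraries. The FR libraries had 46.0, 56.0 and 92.3 CPM. FR replicates 1 and 2 were below every control library, while FR replicate 3 was the highest of all 6. Its log2 fold change was -0.32 ± 0.26 (adjusted p = 0.538). On the other strand Junb shares 173 of its 2301 exonic base pairs with the peroxiredoxin gene Prdx2, at 133 to 160 CPM, and the sources used here do not say whether counting used the strand.

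Jund, the JUN family member known for steady rather than pulsed expression (ENSMUSG00000071076.6, chromosome 8, 70698949 to 70700616, a single exon), had 87.2, 38.3 and 28.4 CPM in control replicates 1, 2 and 3. It had 86.7, 81.8 and 117 CPM in FR replicates 1, 2 and 3. Control replicate 1 lay among the FR libraries, and the other 2 control libraries lay well below the lowest FR value. FR F1 differed from control F1 by 0.89 ± 0.38 on the log2 scale (unadjusted p = 0.0485, adjusted p = 0.275; edgeR). Without control replicate 1 it was 1.51 ± 0.24 and passed (adjusted p = 0.0217), in a fit that called 651 genes. With all libraries and no filter on low counts it was 0.88 ± 0.21 and passed too (adjusted p = 0.00195). That SE, which Junb and Ier2 shared in the same fit, was below the 0.38 of the filtered fit.

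The Jund row needs care because 877 of its 1668 exonic base pairs lie opposite Gm11175, an antisense gene model. Gm11175 had 49.4, 13.5 and 11.1 CPM in the control libraries and 55.0, 60.4 and 79.2 CPM in the FR libraries. The same 2 control libraries were low in both genes and FR replicate 3 was highest in both. The log2 fold change of Gm11175 was 1.40 ± 0.51 (adjusted p = 0.216). Without a stated strand setting, reads of Jund and of Gm11175 cannot be told apart.

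**Figure D2:**
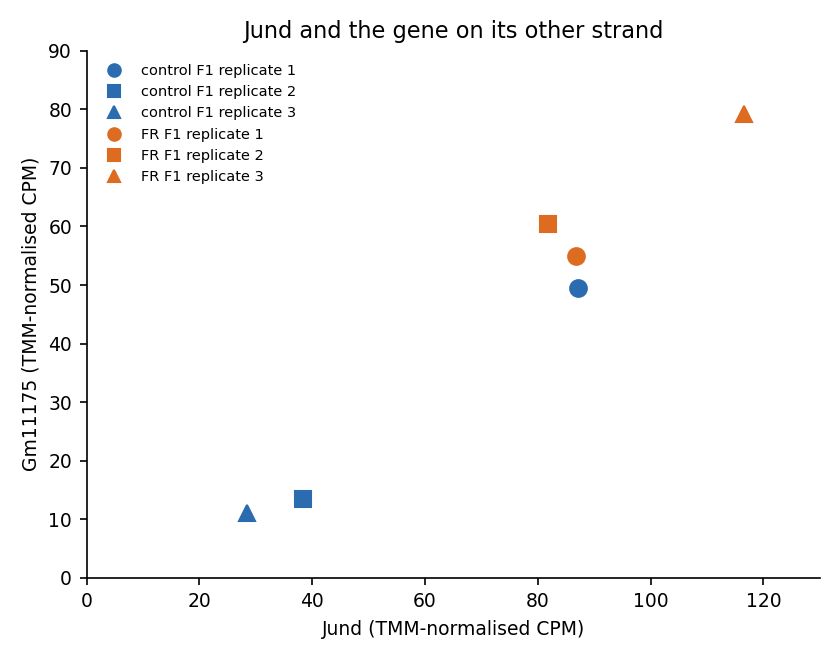
Jund against Gm11175, the gene model on its other strand, in TMM-normalised CPM on linear axes, with a point for each of the 3 control F1 (blue) and 3 FR F1 (orange) libraries. Control replicates 2 and 3 sit together at 38.3 and 28.4 CPM of Jund, and control replicate 1 at 87.2 sits with the FR libraries.

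Egr1, which couples growth factor signals to transcription (ENSMUSG00000038418.7, chromosome 18, 34859823 to 34864984), had 17.8, 12.6 and 16.1 CPM in control replicates 1, 2 and 3. It had 12.0, 107 and 49.6 CPM in FR replicates 1, 2 and 3. FR replicates 2 and 3 were above every control library, but FR replicate 1 was the lowest of all 6. The deposited counts were 41, 28 and 42 in the control libraries and 32, 291 and 121 in the FR libraries. Exact 95% Poisson intervals were 258 to 326 for the 291 counts of FR replicate 2 and 21.9 to 45.2 for the 32 of FR replicate 1, so the FR libraries differed among themselves beyond counting error. In edgeR the log2 fold change was 1.86 ± 0.66 (unadjusted p = 0.0219, adjusted p = 0.210). It was 0.98 without FR replicate 2 and 2.35 without FR replicate 1, with adjusted p of 0.498 and 0.149. Without a filter on low counts it was 1.85 ± 0.27 and passed (adjusted p = 3.04e-09). That SE was below the 0.66 of the filtered fit, although the FR libraries ran from 12.0 to 107 CPM.

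Ier2, a small nuclear protein gene induced together with FOS in many cells (ENSMUSG00000053560.4, chromosome 8, 84661331 to 84662852, a single exon), had 69.4, 73.5 and 73.3 CPM in the control libraries. In the FR libraries it had 69.9, 91.4 and 87.8 CPM. FR replicates 2 and 3 were again the highest and FR replicate 1 fell within the control range, but the highest library was only 1.32 times the lowest. That gave a log2 fold change of 0.20 ± 0.16 (adjusted p = 0.503).

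Klf6, a zinc finger factor known from wound and stellate cell responses (ENSMUSG00000000078.7, chromosome 13, 5861482 to 5870394), had 24.3, 11.7 and 9.21 CPM in the control libraries. The FR libraries had 21.7, 20.6 and 16.8 CPM. Control replicate 1 was the highest of the 6, and the other 2 control libraries were below every FR library, as in Jund. The log2 fold change was 0.39 ± 0.37 (adjusted p = 0.587) and 0.92 without control replicate 1.

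Myc, the growth regulator that rises early in liver regeneration (ENSMUSG00000022346.15, chromosome 15, 61985391 to 61990374), had 14.7, 71.7 and 13.0 CPM in control replicates 1, 2 and 3. It had 18.3, 7.74 and 8.62 CPM in FR replicates 1, 2 and 3. Control replicate 2 was 3.91 times the next library, and without it the groups still overlap through FR replicate 1. Its 159 counts have an exact 95% Poisson interval of 135 to 186, against 23.6 to 47.5 for the 34 counts in each of the other control libraries. The log2 fold change was -1.50 ± 0.69 (adjusted p = 0.297). Without control replicate 2 it was -0.26 ± 0.44 (adjusted p = 0.811). Without a filter on low counts it was -1.52 ± 0.32, an SE below the 0.69 of the filtered fit, and passed (adjusted p = 2.03e-04).

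**Figure D3:**
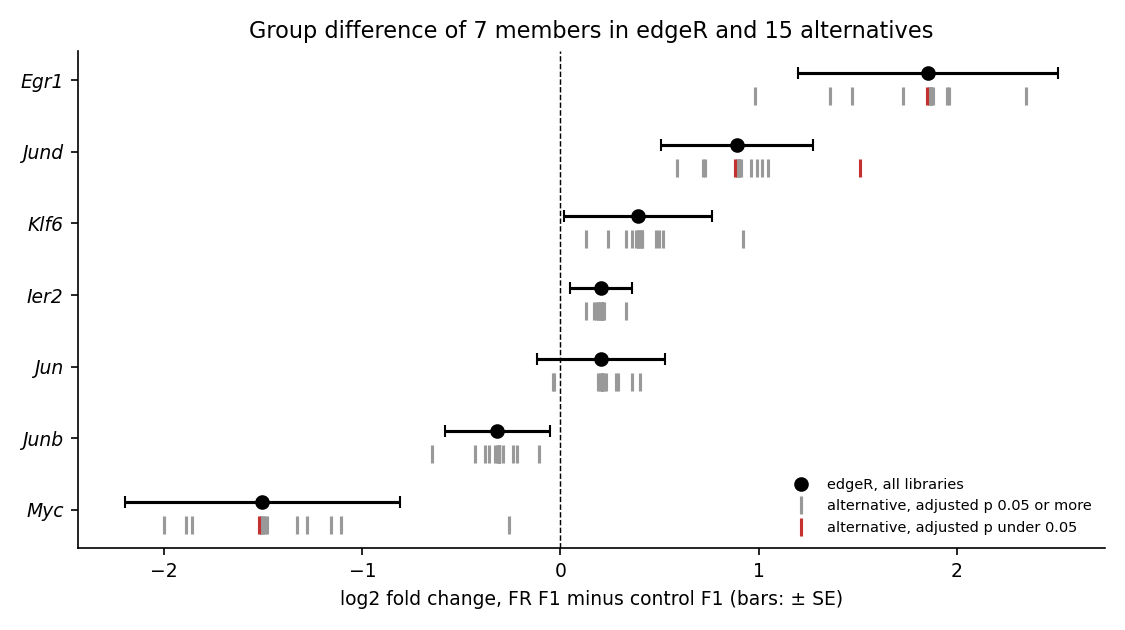
Log2 fold change of FR F1 against control F1 for the 7 members tested, with black points and bars for edgeR on all libraries ± SE and ticks below them for 15 alternatives, red where the adjusted p was under 0.05. Egr1 at 1.86 and Myc at -1.50 have the widest bars, and red ticks appear for Egr1, Jund and Myc alone.

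Replicate spread differed widely among the members. The biological coefficient of variation, the replicate spread beyond counting error in the edgeR fit, was 56.0% for Myc and 52.2% for Egr1. These exceeded the value of 98.3% and 97.7% of tested genes. Jund had 33.2%, Klf6 31.1%, Jun 27.4% and Junb 23.7%, all above the median of 19.98% over tested genes. Ier2 was the exception at 15.4%.

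Seen library by library, the members did not rise or fall as a block. For each library, the log2 CPM of each of the 7 tested members was set against that member's mean over the 6 libraries. The average of these 7 deviations was -0.02, 0.01 and -0.37 for control replicates 1 to 3. For FR replicates 1 to 3 it was -0.14, 0.23 and 0.30. The groups overlap, and their means of -0.13 and 0.13 have SDs of 0.21 and 0.24 (n = 3 each). In FR replicate 3, 6 of the 7 members were above their mean, and Jun, Junb and Jund had their highest value there. In control replicate 3, 2 of 7 were above, with Jund and Klf6 at their lowest. Taking out Myc moved control replicate 2 from 0.01 to -0.34, and taking out Egr1 moved FR replicate 2 from 0.23 to -0.08.

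**Figure D4:**
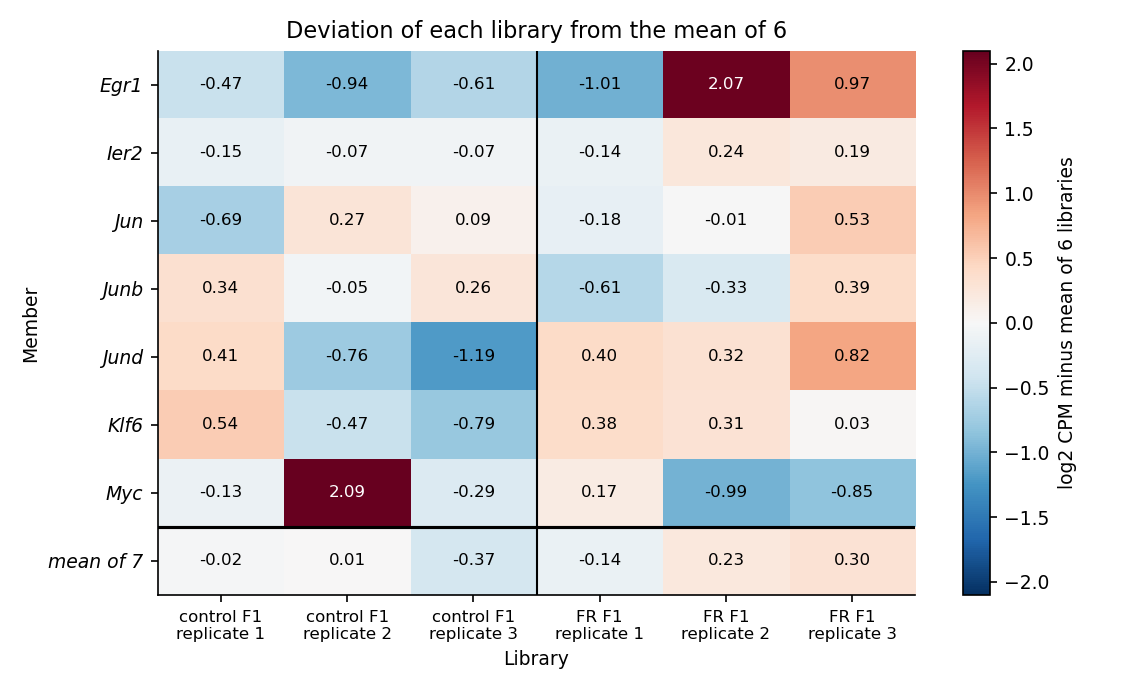
Deviation of log2 CPM from the member's mean over the 6 libraries for 7 members (rows) in each library (columns), from blue below to red above, with the average of the 7 in the bottom row. The darkest red cells are Egr1 in FR replicate 2 (2.07) and Myc in control replicate 2 (2.09), and no other deviation in these 2 libraries exceeds 1 in size.

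Across the 21 pairs of tested members, Pearson r of log2 CPM over the 6 libraries ranged from -0.69 to 0.95 with a median of 0.03. The highest values were those of Egr1 with Ier2 (0.95) and Jund with Klf6 (0.87), and the lowest was that of Egr1 with Myc (-0.69). These are descriptions over 6 libraries that share group and depth differences. The genes most like the average profile of the members were Impa1, Pigm, Zfp354b, Hspe1 and Cyp7b1, with r of 0.98, 0.98, 0.98, 0.98 and 0.97 over the same 6 libraries among 11070 genes ranked. As the highest of many genes over few libraries, these r values are a description and were not tested. Hspe1 also stands in the list of heat shock genes given below, and did not pass in edgeR (adjusted p = 0.326).

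Related genes were taken from 6 lists of 98 genes in all, of which 81 had enough counts. Of these 81, 2 rose, 0 fell and 79 did not pass in edgeR, while DESeq2 called 8 and limma-voom 2. Over all tested genes edgeR called 0.837%, DESeq2 3.51% and limma-voom 0.791%. The median log2 fold change was 0.03 against 0.00 over all tested genes. Unadjusted p was under 0.05 in 24 of the 81, beside the 17.9% of all tested genes. Nfil3, a bZIP repressor that is both signal-induced and rhythmic, had 26.9, 41.0 and 42.2 CPM in the control libraries and 137, 95.1 and 96.0 CPM in the FR libraries. Its groups lie apart, with a log2 fold change of 1.57 ± 0.23 (adjusted p = 0.0374). Pim1, an early-induced kinase gene, had 47.3, 48.2 and 41.0 CPM in the control libraries and 81.9, 102 and 94.8 CPM in the FR libraries. Its groups lie apart as well, with a log2 fold change of 1.03 ± 0.16 (adjusted p = 0.0385). DESeq2 and limma-voom called both genes too, but edgeR did not without any single FR library or without control replicate 2, with adjusted p of 0.0900 to 0.166 for Nfil3 and 0.124 to 0.175 for Pim1. Both calls were also lost in edgeR with replicate number as a block, at adjusted p of 0.0937 and 0.0835.

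Among the 15 other immediate early transcription factor genes, Nfil3 included, Egr2, Egr3, Nr4a1, Nr4a2, Nr4a3 and Klf4 had too few counts to test, as Fos did. Of the 9 tested, edgeR called 1, DESeq2 4 and limma-voom 1, with 5 at an unadjusted p under 0.05 in edgeR. Over all tested genes these shares were 0.837%, 3.51%, 0.791% and 17.9%. The classic induced orphan receptor gene Nr4a1 had 1.35 to 3.84 CPM in control F1 and 3.37 to 7.80 CPM in FR F1 libraries. Per1, which responds to signals and also belongs to the clock, had 158, 109 and 189 CPM in the control libraries and 7.85, 3.68 and 74.3 CPM in the FR libraries (adjusted p = 0.210). Within FR F1, Per1 was lowest in replicate 2, where Egr1 was highest at 107 CPM. FR replicate 1 was low in both, with Egr1 at 12.0 CPM, and Per1 was highest in FR replicate 3, where Egr1 had 49.6 CPM. A link between the 2 genes was not tested. The signalling and feedback list had 28 of 34 genes tested, with a median of 0.04. At an unadjusted p under 0.05 there were 12, of which edgeR called 1 after adjustment, while DESeq2 called 4 and limma-voom 1 of the list. These stand beside the same shares of all tested genes. Its member Dusp1, a phosphatase gene that ends MAP kinase signals, had 23.8, 68.1 and 38.4 CPM in control F1 and 46.0, 49.4 and 58.7 CPM in FR F1 livers (log2 fold change 0.24 ± 0.34, adjusted p = 0.718). Nr4a1, Per1 and Dusp1, and Hspa1b below, were named after their values were seen.

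The other AP-1 family genes had 0 of 4 called with edgeR and 0 with DESeq2 and limma-voom. In edgeR 1 of them had an unadjusted p under 0.05, against 17.9% of all tested genes. Their smallest p values were those of Atf7, at -0.51 ± 0.19 (adjusted p = 0.216), and Fosl2, at 0.54 ± 0.32 (adjusted p = 0.401). Upstream kinases and promoter-binding factors had 0 of 24 called by each of the 3 tools, with 5 at an unadjusted p under 0.05. Elk3, an SRF partner gene, had 1.13 ± 0.30 (adjusted p = 0.133) and Mrtfb, an SRF coactivator gene, 0.50 ± 0.14 (adjusted p = 0.137). MYC partners and relatives had 0 of 10 called by each tool and 0 at an unadjusted p under 0.05, with Mga at 0.46 ± 0.23 (adjusted p = 0.324) and Mxi1 at -0.26 ± 0.17 (adjusted p = 0.429). Of the 6 genes of the ATF3 and stress response list, 0 were called by each tool and 1 had an unadjusted p under 0.05. Trib3 had -0.95 ± 0.34 (adjusted p = 0.213) and Atf4, which controls Atf3 in the stress response, -0.16 ± 0.11 (adjusted p = 0.464).

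**Figure D5:**
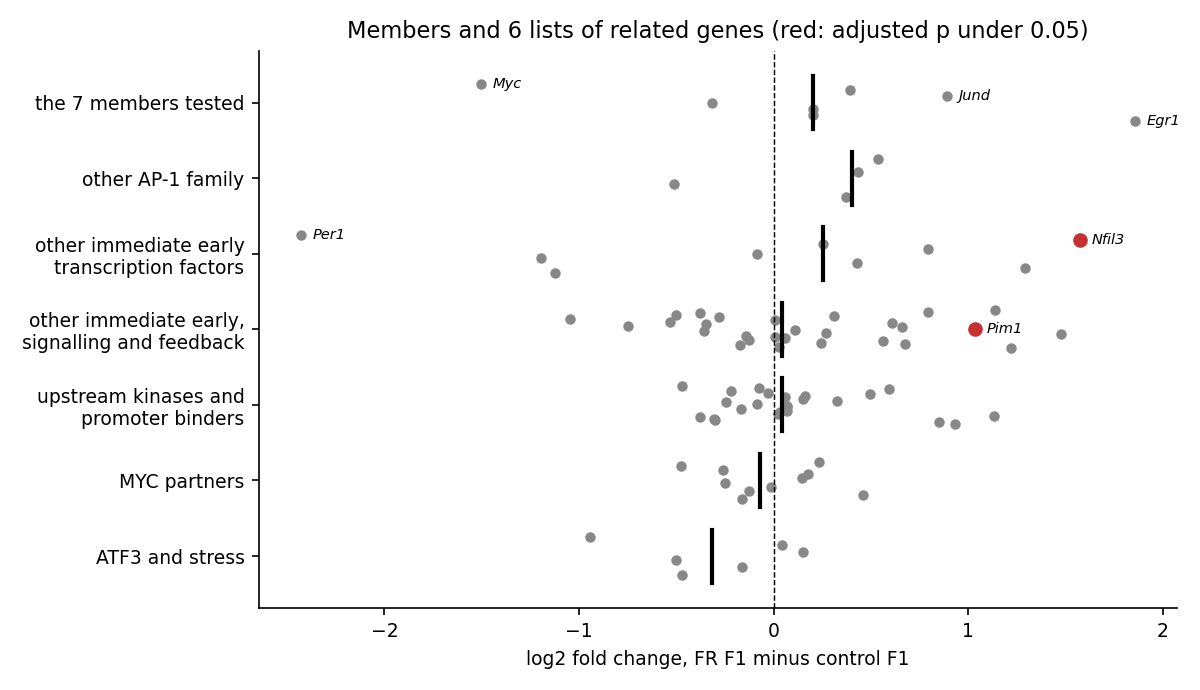
Log2 fold change of FR F1 against control F1 for the 7 members tested and for the tested genes of 6 related lists, a point for each gene and a black bar for each median, with red points for adjusted p under 0.05. Nfil3 (1.57) and Pim1 (1.03) are the red points, and the medians run from -0.32 (ATF3 and stress) to 0.40 (other AP-1 family).

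Several things that bear on collection and on the cell mix moved between these libraries, and their part in the members' values was not tested. Of 10 heat shock genes 1 rose, Hspb1, from 3.47, 8.11 and 8.44 CPM in control F1 to 25.4, 43.5 and 65.2 CPM in FR F1 (log2 fold change 2.73 ± 0.44, adjusted p = 0.0404). DESeq2 called 2 heat shock genes and limma-voom 0, with Hspb1 at an adjusted p of 0.0756 in limma-voom. The unadjusted p in edgeR was under 0.05 in 4 of the 10, against 17.9% of all tested genes. In 3 of the 10 the groups lay wholly apart, against 25.7%. The inducible chaperone gene Hspa1b had 10.4 to 20.3 CPM in control F1 and 28.8 to 57.9 CPM in FR F1 (adjusted p = 0.133). Of 6 hypoxia genes tested 1 rose, Ndrg1, by 1.65 ± 0.23 (adjusted p = 0.0300), and the other 5 had values from -0.34 to 0.13. Of 14 clock genes 2 rose, Arntl and Npas2, and 2 fell, Per2 and Per3, while DESeq2 called 8 and limma-voom 5. Over all tested genes edgeR called 0.837%, DESeq2 3.51% and limma-voom 0.791%. In 13 of the 14 the unadjusted p was under 0.05, and in 13 the groups lay wholly apart, against 17.9% and 25.7% of all tested genes. The edgeR calls of Hspb1, Ndrg1 and the 4 clock genes were each lost without FR replicate 1 and without FR replicate 2, and all but that of Arntl without control replicate 2. Those of Hspb1 and Per2 were also lost without FR replicate 3, and those of Ndrg1 and Npas2 with replicate number as a block.

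For each cell type the markers named are the 2 tested genes highest in CPM per kilobase, while the sums are in CPM. Hepatocyte markers, led by Ahsg and Alb, were 8 of 8 tested, 6 negative and none called. They summed to 4419 to 5182 CPM in control F1 and 4008 to 4576 in FR F1. Alb averaged 912 CPM in control F1, below Egfr at 1014, and did not exceed 1.14 counts per base pair in any library. Whether duplicate reads were removed is not given, so sums of abundant genes may be compressed, which was not tested. Sinusoidal endothelial markers, all 10 positive and none called, summed to 381 to 595 CPM in control F1 and 735 to 852 in FR F1, led by Clec4g and Eng. Stellate cell and fibroblast markers, 9 of 10 tested, all 9 positive and none called, summed to 345 to 558 and 748 to 934 CPM, led by Ecm1 and Dcn. Kupffer cell markers, all 10 positive and none called, summed to 320 to 624 and 406 to 792 CPM, led by C1qa and Clec4f. Neutrophil markers, 2 of 8 tested and led by S100a9 and Csf3r, summed to 11.7 to 19.5 and 15.5 to 27.3 CPM. Lymphocyte markers, 1 of 9 tested and led by Ighm, summed to 9.47 to 31.5 and 40.2 to 65.2 CPM. Erythroid markers, 4 of 7 tested, 3 positive, 1 negative and none called, were led by Alas2 and Hbb-bs. They summed to 182 to 407 and 409 to 470 CPM. Most of that sum was Alas2, whose groups overlap, at 309, 84.3 and 99.0 CPM in control F1 and 308, 316 and 356 in FR F1. Hbb-bs had a log2 fold change of 0.10 ± 0.17. Cholangiocyte markers, 3 of 8 tested, 2 positive, 1 negative and none called, were led by Spp1 and Krt23. They summed to 44.6 to 144 and 71.4 to 108 CPM. No marker was at 0 counts in all libraries. Over the 8 marker lists edgeR called 0 of 47 genes, with 22 at an unadjusted p under 0.05, against 0.837% and 17.9% of all tested genes. DESeq2 called 7, 4 sinusoidal and 3 stellate, and limma-voom 2, against 3.51% and 0.791% of all. The groups lay wholly apart in 8 of 10 sinusoidal and 6 of 9 stellate markers, against 25.7% of all tested genes. They did so in 2 of 8 hepatocyte and 1 of 10 Kupffer cell markers. Total counts per library ranged from 2279755 to 2730160.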

How the data were processed

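Poly(A) RNA of 6 livers was sequenced, and the counts per gene that the authors deposited are whole numbers in a single table. Per the submitters' processing notes, STAR, StringTie, HTSeq, DESeq2 and build mm10 were used, with no versions or roles. The sources used here do not give the annotation release, the strand setting or the handling of shared or duplicate reads. Per the labels, groups and replicate numbers come from titles, and table columns were matched through the sample descriptions.

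Of 53715 gene IDs, 53620 matched a symbol in GENCODE M21. The test on raw counts was run in edgeR 4.0.16 (R 4.3.3): filterByExpr (minimum count 10, minimum total 15; 13022 genes kept), TMM factors and quasi-likelihood F tests over all 6 libraries, two-sided. Genes with an adjusted p (Benjamini-Hochberg) under 0.05 were called. The SE is the absolute log2 fold change divided by the square root of F. Log2 CPM used a prior count of 2. The script was tested on simulated data. Replicates of a group differed beyond counting noise, with chi-square of 4.32 to 14.9 per degree of freedom.

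Named genes were the 10 members, genes past the threshold in each list of related or handling genes (otherwise the 2 of smallest p), the 2 tested genes of each marker list highest in CPM per kilobase, and the 5 genes with mean CPM of at least 5 most like the average member profile. Some genes past the threshold in the clock list are named without values. One marker gene is not reported here and was left out of its list. Members and lists were chosen with earlier results of these data known. The 15 alternatives were DESeq2 1.42.0, limma-voom (limma 3.58.1), edgeR with robust estimation, RLE, upper quartile and no scaling factors, no filter and a stricter one, a replicate block and each library left out.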

Additional observations from a re-analysis of the deposited data

How the results depend on the processing

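The number of members called was 0 in edgeR on all libraries and 3 without a filter on low counts. That unfiltered fit of 30930 genes called 1251 and carried less of each gene's own replicate spread. The number of members called ranged from 0 to 1 when each library was left out, the 1 being Jund without control replicate 1. It was 0 in the other alternatives, the replicate block among them. The number of genes called was 109, against 457 with DESeq2, 21 with the replicate block and 7 to 651 with a library left out. Deviations of same-numbered libraries correlated at -0.02, 0.11 and 0.15 over genes, and those of differently numbered libraries at -0.22 to 0.15. The deviations of a group's 3 libraries cancel out, so these values cannot show whether the replicate numbers pair the libraries. Under the block, log2 fold changes were 1.02 for Jund, 1.47 for Egr1 and -1.16 for Myc. Of the members, Jun alone changed sign, to -0.04 without control replicate 1 and -0.03 without FR replicate 3. Ranges over the 15 alternatives were -0.04 to 0.40 for Jun, -0.65 to -0.11 for Junb, 0.59 to 1.51 for Jund, 0.98 to 2.35 for Egr1, 0.13 to 0.33 for Ier2, 0.13 to 0.92 for Klf6 and -2.00 to -0.26 for Myc. The average deviation of a library was computed again without Egr1, Myc or Jund, choices made after seeing the data. It moved beyond the spread of its group in 2 cases, to -0.337 in control replicate 2 without Myc and to -0.077 in FR replicate 2 without Egr1. No tested member had under 5 CPM, so the alternative without such members left each library's average as it was. The cause of these changes was not tested. Depth limits Fos, Fosb and Atf3, with 42, 5 and 33 counts over all libraries.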
